A study of Rattus norvegicus with 6 samples.

Results

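Multidrug efflux transporters are membrane pumps of the ATP-binding cassette (ABC) family, and 8 of their genes were examined in the rat kidney epithelial line NRK-52E after exposure to streptozotocin (STZ), an alkylating anti-cancer drug. The genes were Abcb1a and Abcb1b (P-glycoproteins), Abcc1, Abcc2, Abcc3, Abcc4 and Abcc5 (multidrug resistance-associated proteins, MRPs) and Abcg2 (breast cancer resistance protein, BCRP). They were chosen by gene symbol among the 18930 rows of the count table. The RNA-seq libraries came from 3 Control samples, given vehicle, and 3 samples exposed to 10 mM STZ over 24 h, and every sample has the genotype WT. The cells are a single established line, and whether the 3 samples of a group were separate cultures is not stated, so the p-values measure the spread between these samples, which may be technical. Total counts ranged from 10430924 to 12737131 in Control and from 11658253 to 15191349 in STZ.

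These pumps use ATP to move drugs, toxins and conjugated metabolites out of cells. P-glycoprotein, BCRP, MRP2 and MRP4 sit at the apical membrane of the proximal tubule and pass their substrates into the urine, while MRP1 and MRP3 are found on basolateral membranes of epithelia. MRPs carry mainly organic anions, including glutathione, glucuronide and sulfate conjugates, and MRP4 and MRP5 also carry cyclic nucleotides. Their genes are known to respond to xenobiotic, oxidative and DNA damage signals in other settings.

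Of the 8 genes, 5 had enough reads to be tested, and 4 of these rose in STZ. Abcg2 rose most among the tested genes, followed by Abcc1, Abcc4 and Abcc5, with fitted folds between 1.24 and 1.58. Abcc3 was not past the threshold. Abcb1b and Abcc2 were near the limit of detection, and Abcb1a was matched to no row by its symbol and was not analysed here. A gene was called higher or lower at an adjusted p-value under 0.05 in the quasi-likelihood test of edgeR, adjusted by Benjamini-Hochberg across all 11870 rows tested. By that rule 4 of the 5 tested transporters were higher and 0 were lower, against 25.9% of all rows tested that were higher and 25.1% that were lower. The counts were also 4 and 0 at an unadjusted p under 0.05, which 6636 of the 11870 rows passed in either direction. They were 4 and 0 again with DESeq2 (2598 of all rows higher and 2451 lower) and limma-voom (3056 higher and 2962 lower). None of the 5 also passed the fold-change threshold of the study's methods (absolute log2 fold change over 1), which 2.26% of all rows passed in the higher direction. In the same 4 genes every STZ sample lay above every Control sample, which held for 28.6% of all rows tested. Each of the 5 genes had at least 183 reads in every sample, so none was tested because of its level in 1 group alone.

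The sequences upstream of 3 of the genes that were higher, and of Abcb1b, are shown as context. Abcb1b was not among the genes tested, and which gene its rows stand for is uncertain. The RefSeq promoter table (build GRCr8) held 6 of the 8 genes, Abcb1a, Abcb1b, Abcc1, Abcc2, Abcc4 and Abcg2, with 250 bases before and 50 bases after each annotated start. The 3 called genes with an entry and Abcb1b are printed 5′ to 3′ on the strand of the gene, with matches to the searched motifs in capitals. Abcg2 lies on the plus strand (chr4:89075224-89075523), and Abcc1 (chr10:1162318-1162617), Abcc4 (chr15:102181315-102181614) and Abcb1b (chr4:26279980-26280279) lie on the minus strand.
Abcg2: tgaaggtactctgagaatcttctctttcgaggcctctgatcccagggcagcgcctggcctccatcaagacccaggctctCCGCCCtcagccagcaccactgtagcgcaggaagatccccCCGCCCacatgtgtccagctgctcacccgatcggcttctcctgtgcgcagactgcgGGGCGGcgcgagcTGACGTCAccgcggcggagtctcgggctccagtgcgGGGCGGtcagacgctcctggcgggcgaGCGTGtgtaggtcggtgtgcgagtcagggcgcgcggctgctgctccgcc
Abcc1: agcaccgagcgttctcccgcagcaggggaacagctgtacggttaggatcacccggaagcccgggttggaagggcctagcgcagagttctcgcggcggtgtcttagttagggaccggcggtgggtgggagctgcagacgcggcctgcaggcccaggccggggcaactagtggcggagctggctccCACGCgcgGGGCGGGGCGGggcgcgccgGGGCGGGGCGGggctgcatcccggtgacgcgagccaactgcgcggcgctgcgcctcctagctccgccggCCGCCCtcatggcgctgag
Abcc4: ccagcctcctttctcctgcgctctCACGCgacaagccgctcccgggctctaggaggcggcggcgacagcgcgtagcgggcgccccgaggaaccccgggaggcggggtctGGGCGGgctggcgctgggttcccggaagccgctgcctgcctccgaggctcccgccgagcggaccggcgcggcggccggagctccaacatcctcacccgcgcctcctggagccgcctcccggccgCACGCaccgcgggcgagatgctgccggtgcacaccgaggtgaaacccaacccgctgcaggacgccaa
Abcb1b: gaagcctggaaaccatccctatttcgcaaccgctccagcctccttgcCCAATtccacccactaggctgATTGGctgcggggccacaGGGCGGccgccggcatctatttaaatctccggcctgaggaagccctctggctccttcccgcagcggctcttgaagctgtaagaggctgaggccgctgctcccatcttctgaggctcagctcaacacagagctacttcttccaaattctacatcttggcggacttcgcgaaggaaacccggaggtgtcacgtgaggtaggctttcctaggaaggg

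The motifs were searched on both strands, and matches may overlap. The Abcg2 window held 1 cAMP response element (TGACGTCA) between bases -62 and -55 from the start, a motif present in 1.83% of the 33469 promoters of the same length. It also held 4 GC boxes (GGGCGG), against 5 in Abcc1, of which the pairs starting at -58 and -53 and at -38 and -33 share a base, and 1 in each of Abcc4 and Abcb1b. A GC box was present in 33.1% of all promoters. The xenobiotic response core (GCGTG), read by the aryl hydrocarbon receptor, matched once in Abcg2, once in Abcc1 and 2 times in Abcc4, and was present in 29.7% of all promoters. The Abcb1b window held 2 CCAAT boxes (CCAAT, in 37.5% of promoters). The antioxidant response element (TGACNNNGC, in 12.1% of promoters) matched 1 time in Abcc2 and in no other of the 6 windows. The p53 half-site, in 7.98% of promoters, matched in none of the 6, which says only that these letters are not in these windows. The GC content was 68% in Abcg2, 73.7% in Abcc1, 75.3% in Abcc4 and 58.3% in Abcb1b, with a median of 51.7% over all promoters. These matches are a description of the letters and not of binding.

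Abcg2 encodes BCRP, a half-transporter that works as a dimer and exports urate, porphyrins and many anti-cancer drugs. Levels are given as CPM (counts scaled to a common library size, the usual unit of edgeR) with TMM scaling, which are shares of the sequenced RNA, so a change in cell composition and a change of RNA per cell cannot be told apart. Abcg2 had 17.3, 16.6 and 16.0 CPM in Control replicates 1, 2 and 3, and 26.5, 25.0 and 27.2 CPM in STZ replicates 1, 2 and 3. All 3 STZ samples were above all 3 Control samples, with a gap wider than the spread within either group. The mean rose from 16.7 ± 0.680 CPM (SD, n = 3) to 26.2 ± 1.09 CPM (SD, n = 3). The fit gave a log2 fold change of 0.66 ± 0.08 (SE, adjusted p = 1.06e-08 in edgeR), a fold of 1.58 with a 95% confidence interval of 1.405 to 1.78. Of all rows tested, 5.11% had a higher log2 fold change.

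Abcc1 encodes MRP1, an exporter of glutathione conjugates, oxidized glutathione and leukotriene C4. Its levels were 66.5, 66.0 and 67.6 CPM in Control and 93.5, 95.9 and 88.7 CPM in STZ. The Control samples were within 2 CPM of each other, and the lowest STZ sample was well above them. Its log2 fold change was 0.47 ± 0.05 (SE, adjusted p = 1.3e-10 in edgeR), a fold of 1.39 (95% confidence interval 1.29 to 1.49). This was the smallest p-value among the transporters.

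Abcc4 encodes MRP4, which exports cyclic nucleotides, prostaglandins, urate and nucleotide analogues. It had 45.8, 47.6 and 53.6 CPM in Control and 63.2, 63.5 and 62.5 CPM in STZ. Control replicate 3 was the highest of its group, but the groups did not overlap. The change was 0.36 ± 0.06 on the log2 scale (SE, adjusted p = 1.87e-06 in edgeR), with a range of 0.31 (without Control replicate 1) to 0.43 (without Control replicate 3) when 1 sample was left out.

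Abcc5 encodes MRP5, an exporter of cyclic nucleotides and nucleotide analogues. It had 90.6, 87.1 and 92.3 CPM in Control and 113, 108 and 114 CPM in STZ, again without overlap. The change was 0.31 ± 0.05 on the log2 scale (SE, adjusted p = 2.95e-07 in edgeR), a fold of 1.24 (95% confidence interval 1.165 to 1.33).

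Abcc3 encodes MRP3, which exports bile acids and glucuronides across basolateral membranes. It had 25.3, 24.7 and 26.3 CPM in Control and 24.8, 25.9 and 21.5 CPM in STZ, and the groups overlapped, with STZ replicate 3 the lowest sample. The log2 fold change was -0.09 (95% confidence interval -0.25 to 0.07, adjusted p = 0.372 in edgeR). The interval leaves room for a fold between 0.839 and 1.05, so a rise as large as that of the other tested transporters lay outside it.

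**Figure D1:**
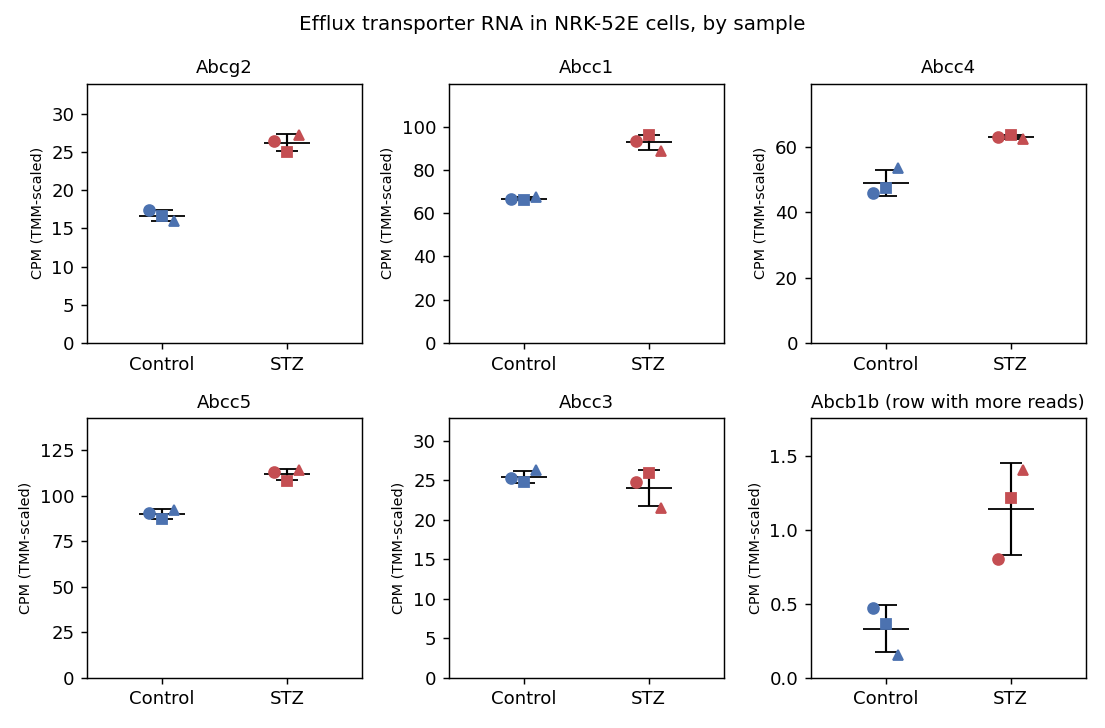
TMM-scaled CPM (vertical axes, starting at 0) of 6 rows in Control and STZ samples, where each point is a sample (circle, square and triangle for replicates 1, 2 and 3), horizontal lines are means and bars are SD (n = 3). Abcg2, Abcc1, Abcc4, Abcc5 and the low Abcb1b row lie higher in every STZ sample than in any Control sample, while the Abcc3 groups overlap.

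**Figure D2:**
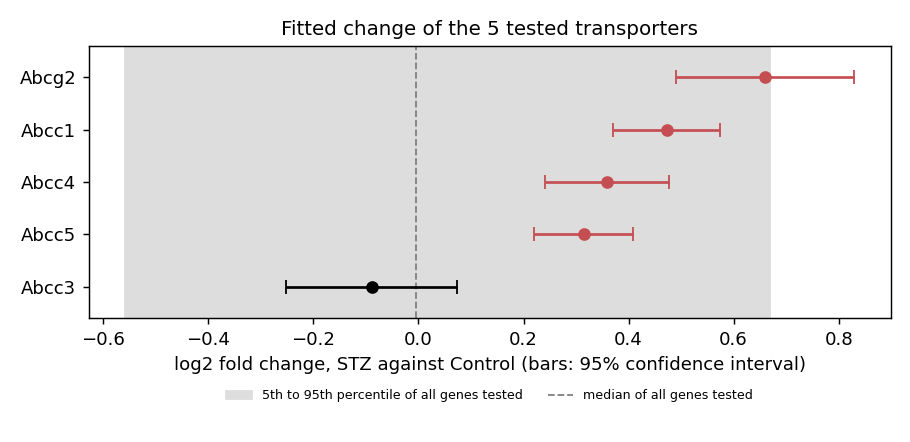
Fitted log2 fold change of STZ against Control for the 5 tested transporters (points) with 95% confidence intervals (bars), red where the adjusted p-value was under 0.05, over the 5th to 95th percentile of all rows tested (grey, -0.56 to 0.67). The 4 red points lie between 0.31 and 0.66 and the interval of Abcc3 spans 0.

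Whether the size of the change differed among the transporters was examined by the ratio of 2 genes within each sample, which does not depend on library scaling or gene length when it is compared between groups. The Abcg2 to Abcc3 ratio of CPM was 0.687, 0.673 and 0.608 in Control and 1.07, 0.966 and 1.26 in STZ. The Abcg2 to Abcc5 ratio was 0.192, 0.191 and 0.173 in Control and 0.234, 0.231 and 0.238 in STZ. Both ratios were higher in every STZ sample. Of 10 pairs compared, 7 had ratios that did not overlap between the groups, among them all 4 pairs with Abcc3, against 54.8% of all pairs of tested rows with a read in every sample. The pairs share genes, so they are not separate observations. Each of these 7 had p = 0.1 by a two-sided exact permutation test, the smallest p that 3 samples against 3 allow, and 0.143 after Benjamini-Hochberg adjustment, so the design could not pass a threshold of 0.05. The ratios of Abcg2 to Abcc1, Abcc1 to Abcc4 and Abcc4 to Abcc5, neighbours in the order of change among the 4 genes that rose, overlapped between the groups. For Abcg2 to Abcc1 the overlap was narrow, with 0.2609 in STZ replicate 2 against 0.261 in Control replicate 1. With 3 samples against 3, an overlap cannot show that the changes were equal. Summed over the 5 genes, the level was 248 ± 7.14 CPM in Control (SD, n = 3) and 318 ± 3.66 CPM in STZ (SD, n = 3), a ratio of 1.28, in which Abcc1 and Abcc5 have the most reads. Levels were not compared between genes, because no transcript lengths were used here.

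Rows named for the P-glycoprotein gene Abcb1b had few reads, and Abcb1a had no row by its symbol. P-glycoprotein exports a wide range of uncharged and cationic drugs, and rodents carry the paralogs Abcb1a and Abcb1b in place of a single gene. The symbol Abcb1b stood on 2 rows. The row with fewer reads had 1, 1 and 0 reads in Control and 1, 0 and 1 in STZ. The row with more reads had 5, 4 and 2 reads in Control and 11, 14 and 21 in STZ, and every STZ sample was above every Control sample. Set against total counts, its 11 Control and 46 STZ reads gave a ratio of 3.49, with an exact interval of 1.78 to 7.48 that covers counting error only. Default filtering removed this row. With no filter on low counts its log2 fold change was 1.80 (adjusted p = 0.00131 by edgeR's quasi-likelihood test), past both thresholds. Because the paralogs are closely alike and only uniquely mapped reads were counted, reads shared by them were not counted, and which paralog each row stands for is uncertain. Abcc2, which encodes the apical conjugate exporter MRP2, had no read in Control and 2, 2 and 0 reads in STZ. Both groups were under the floor of 3 reads per library, between 0.197 and 0.288 CPM, so no fold is given and a change was not detectable at this depth.

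The other genes were described in 5 lists grouped by function, by counts and medians only. The median log2 fold change was 0.36 over the 5 tested transporters and -0.01 over all rows tested. Counts in every list are to be read beside the 25.9% of all rows tested that were higher and the 25.1% that were lower. Of 29 other ABC transporters, 15 were tested, with 5 higher and 3 lower (median log2 fold change -0.02), or 4 higher and 4 lower with library size or upper quartile scaling. Tap1, which pumps peptides into the endoplasmic reticulum for antigen presentation, had 29.0, 35.3 and 30.1 CPM in Control and 69.3, 71.1 and 69.3 CPM in STZ, a log2 fold change of 1.15 ± 0.06 (SE, adjusted p = 2.6e-19, edgeR). Abcb6, a porphyrin transporter, and Abca1, which loads cholesterol onto lipoproteins, rose by 0.42 and 0.68 on the log2 scale. Abcb4, the phospholipid pump beside the P-glycoprotein genes, had at most 1 read in any sample.

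Most uptake carriers with a row had too few reads to be tested. Of 25 organic ion, nucleoside, peptide and MATE carriers, 15 had a row and 4 were tested, among them the carnitine carrier Slc22a5 (268 to 388 reads) and Slco3a1 (247 to 342 reads), neither past the threshold. Slc29a2, an equilibrative nucleoside transporter, was the only tested one past the threshold, and it fell from 16.5 ± 1.06 to 11.6 ± 1.66 CPM (SD, n = 3), a log2 fold change of -0.52 (adjusted p = 9.21e-05, edgeR). Slc22a2, which takes up organic cations in the kidney, had at most 1 read in any sample. Slc47a1, the MATE carrier that works beside P-glycoprotein at the apical membrane, had 2, 1 and 1 reads in Control and 9, 0 and 0 in STZ, so most of its reads came from STZ replicate 1.

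Among 21 regulators of efflux genes, which were transcription factors and the Nfe2l2 inhibitor Keap1, 16 were tested, with 4 higher and 6 lower and a median log2 fold change of -0.02. Ahr, the dioxin receptor, rose from 51.9 ± 0.782 to 66.0 ± 1.33 CPM (SD, n = 3), a log2 fold change of 0.35 (adjusted p = 8.44e-07, edgeR). Egr1, an immediate early factor, fell from 42.9 ± 0.976 to 21.6 ± 1.10 CPM (SD, n = 3), and Sp1, which binds GC boxes, fell from 144 ± 6.46 to 118 ± 0.357 CPM (SD, n = 3). Their log2 fold changes were -0.99 and -0.30. Nr1i2, the pregnane X receptor, had at most 1 read in any sample. Nfe2l2, the regulator of antioxidant genes, had a log2 fold change of 0.06 and was not past the threshold (adjusted p = 0.19, edgeR). Nr1i2 and Nfe2l2 were named after their values were seen, as were Abcb4, Slc22a2, Slc22a5, Slco3a1, Slc47a1 and Cdh1.

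Genes of glutathione supply and conjugation, which make substrates for MRPs, were all tested. Of the 15 there were 8 higher and 2 lower, against 25.9% and 25.1% of all rows tested, with a median log2 fold change of 0.19. The counts rested in part on single samples, with 5 higher and 3 lower without Control replicate 3, 7 and 0 without Control replicate 2, 6 and 1 without STZ replicate 1, and 7 and 1 without STZ replicate 2. Mgst2, a microsomal glutathione transferase, rose from 9.52 ± 0.302 to 20.5 ± 0.278 CPM (SD, n = 3), a log2 fold change of 1.11 (adjusted p = 1.58e-12, edgeR). Ggt1, which breaks down extracellular glutathione, and Gstp1, a cytosolic glutathione transferase, rose by 0.73 and 0.41 on the log2 scale. The list of membrane scaffolds that hold apical transporters had 6 tested genes, 2 higher and 2 lower, with a median of 0.11. Msn (moesin) rose by 0.42, while Slc9a3r1 (NHERF1) and Rdx (radixin, an anchor of MRP2) had log2 fold changes of -0.42 and -0.26.

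**Figure D3:**
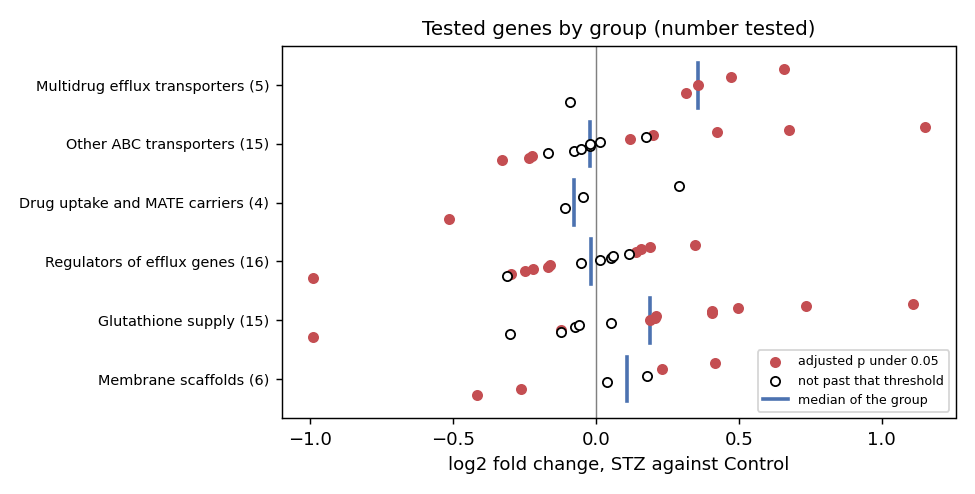
Log2 fold change (horizontal axis) of each tested gene in the transporter set and 5 functional lists, red where the adjusted p-value was under 0.05 and open otherwise, with blue lines at the medians. The transporter median lies at 0.36 and the other medians between -0.08 and 0.19.

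Across the 6 samples, Abcc1 had the transporter pattern with the smallest p-value, and RGD1562339, Btbd19 and Tmem119 had the log2 CPM most like it, with Pearson's r of 0.9993, 0.9985 and 0.9985. The samples fall into the 2 groups and all genes share the same libraries, so high values are common, and 1103 of 9885 genes considered (11.2%) had an r of at least 0.95 with Abcc1. Among the transporters, r with Abcc1 was 0.962 for Abcg2, 0.957 for Abcc5, 0.945 for Abcc4 and -0.309 for Abcc3. These correlations are descriptions over 6 samples in 2 groups.

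The labels call the cells kidney epithelial, and defining markers of the proximal tubule were near the limit of detection, with at most 10 reads in any sample for Lrp2, Cubn, Slc34a1 and Slc5a2. Of 7 proximal tubule markers, 6 had a row and 2 were tested, Ggt1 (above) and Aqp1, whose log2 fold change was -1.25. The summed level of the 6 rows was 57.7 to 60.4 CPM in Control and 74.9 to 87.1 CPM in STZ. Most of this sum was Ggt1, whose mean rose from 45.1 to 75.1 CPM, while the mean of Aqp1 fell from 13.1 to 5.43 CPM. Of 6 epithelial markers, 3 had a row, and the sum, nearly all Krt8, was 1105 to 1180 CPM in Control and 1598 to 1615 CPM in STZ. The untested row, Krt18, had at most 3 reads in any sample. Of the 2 tested, Krt8 was higher and Cdh1 (E-cadherin, 16 to 35 reads) was lower, with log2 fold changes of 0.48 and -0.69 (adjusted p = 0.0296 for Cdh1, edgeR). Of 7 mesenchymal markers, 6 had a row, and the sum, mostly Vim, was 2004 to 2205 CPM in Control and 1893 to 1926 CPM in STZ. All 4 tested mesenchymal markers were lower, against 25.1% of all rows tested, with Col3a1 at a log2 fold change of -1.35. Of 5 endothelial markers, 4 had a row and 0 had enough reads to be tested, with a sum of 0.455 to 0.754 CPM in Control and 0.800 to 1.13 CPM in STZ. Of 5 leukocyte markers, 4 had a row and 1 was tested (Cd68, not past the threshold), with a sum of 1.46 to 2.17 CPM in Control and 2.26 to 2.84 CPM in STZ. The part of these marker changes in the transporter results was not tested.

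**Figure D4:**
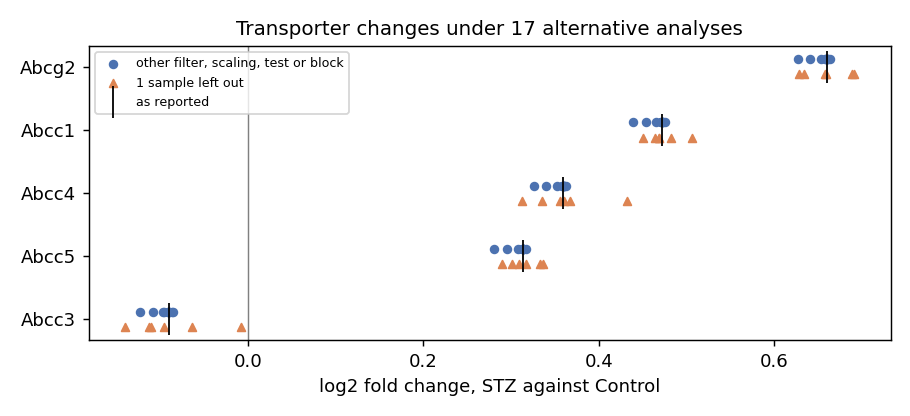
Log2 fold change of each tested transporter in the main fit (black bars, labelled as reported) and under alternatives. Blue points show other filters, scalings, tests or the replicate block, and orange triangles show fits with 1 sample left out. Abcg2, Abcc1, Abcc4 and Abcc5 lie between 0.28 and 0.69 throughout and Abcc3 between -0.14 and -0.01.

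The direction and call of each of the 5 tested transporters were the same in all 17 refits shown in the plot of alternative analyses. In the RefSeq annotation no transporter that was tested overlaps a protein-coding gene, but the spans of Abcc1, Abcc4 and Abcg2 overlap 3, 2 and 1 non-coding genes or pseudogenes. The sources used here do not give the strand setting used in counting.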

How the data were processed

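RNA of 6 NRK-52E samples was prepared with a stranded mRNA kit and sequenced as single-end reads. Alignment by the authors used STAR 2.7.10a and the Rnor6 build, and featureCounts summed the reads that mapped uniquely. The table deposited by the authors holds these raw counts. The annotation release is not given in the sources used here. Of 18930 rows, 422 share a name with another row and 2871 carry only an Ensembl identifier, and every row was kept as deposited. No sample column was left over.

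Filtering (filterByExpr), TMM scaling and the quasi-likelihood test were run with edgeR 4.0.16 in R 4.3.3 on the whole table, with Benjamini-Hochberg adjustment over 11870 rows, and thresholds of adjusted p under 0.05 and absolute log2 fold change over 1. Standard errors are the absolute log2 fold change over the square root of F. Permutation tests used scipy 1.17.1. Alternatives were 3 filters, 3 scalings, DESeq2 1.42.0, limma-voom (limma 3.58.1), edgeR's exact and likelihood ratio tests, glmTreat, the replicate block, and each sample left out. The fit was also run on simulated data, and the outcome of that run is not given here. Within groups, every pair of samples differed beyond counting noise (chi-square over its degrees of freedom at least 1.85).

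The transporters, lists and tests were chosen with earlier results of these data known. Besides the 8 transporters, the text names the 3 genes with the smallest p in each list, among called genes whose mean normalized count is 50 or higher, and the 3 genes most correlated with the transporter of smallest p, with exceptions marked. Marker lists were described only, and the genes named from them, apart from Ggt1, were not chosen by this rule. Promoters and overlapping genes came from RefSeq (GRCr8), used for names, neighbours and the printed sequences.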

Additional observations from a re-analysis of the deposited data

How the results depend on the processing

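Of 222 outcomes over the counts of transporters, the counts called in either direction in the 5 lists and the single transporters, 215 kept their direction and stayed on the same side of the threshold or within 1.5 times. The other 7 were the number of transporters past both thresholds. This number was 0 in the main fit (TMM scaling and the quasi-likelihood test). It was 1 with no filter on low counts, where 585 of 18930 rows passed both. It was 1 with at least 0.5 CPM in 1 sample, where 565 of 13209 rows did. With 1 sample left out it was 0 to 1, beside 403 to 462 of 11934 to 12071 rows. In each case the added row was the Abcb1b row with more reads, which those settings test. Its log2 fold change ranged from 1.43 to 2.14 over the 7 settings that tested it, with adjusted p-values between 9.49e-04 and 0.0182 by edgeR. It was lowest without Control replicate 3. Under all of these settings except the one with no filter, the row passed the filter through its STZ samples. Counted by direction, 4 list counts moved by over 1.5 times, all for glutathione genes with 1 sample left out (8 higher to 5, and 2 lower to 0 or 1). Control and STZ samples share replicate numbers, and the sample titles give no other link. The deviations of same-numbered samples correlated by 0.0324, -0.0378 and 0.105 (replicates 1, 2 and 3) over 10341 genes. Control 3 and STZ 3 correlated best with each other, but Control 1, Control 2 and STZ 2 correlated best with another number. Such weak correlations cannot settle whether the samples were paired. With the replicate block, 4 transporters were higher, the log2 fold change of Abcg2 was 0.66, and the number of rows with an adjusted p under 0.05 was 6199 against 6046. Over all rows, library size only gave 2664 higher and 3485 lower, against 3070 and 2976 in the main fit. Rows past both thresholds numbered 400 in the main fit, 112 by glmTreat, and 249 when each sample had to hold 10 reads. The study itself gives a smaller number than the main fit at these thresholds. The planned order of levels per kilobase was not run, because no transcript lengths were used here. Few reads limit what can be said of Abcb1b and Abcc2.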
